A study of Mus musculus with 16 samples.

Results

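The genes described here encode the laminin and type IV collagen basement membrane: the laminin chains Lama1, Lama5, Lamb1 and Lamc1, the type IV collagen chains Col4a1 and Col4a2, the nidogens Nid1 and Nid2, perlecan (Hspg2) and the collagen-binding protein Sparc. Their probes were found by gene symbol in the annotation of an Illumina mouse bead array. Of the 10 genes, 9 had a probe, and all 9 passed the detection filter, among 7505 genes tested and 16593 genes with a symbol on the array. No probe of the annotation used here carried the symbol Lama5, so that this gene was not analysed here. The study followed mouse embryonic stem cells without the repressor REST (REST -/-, called knockout here) and with it (REST +/+, called control), first as undifferentiated cells at day 0 and then as embryoid bodies after 3, 6 and 9 days. Stem cells were held undifferentiated without feeder cells, on gelatin and in serum with leukemia inhibitory factor (LIF). Embryoid bodies, aggregates that form early germ layer derivatives, were started in hanging drops without LIF and then kept in suspension. Each of the 8 groups, knockout and control at each of the 4 days, had 2 arrays. The labels give each array a number without saying whether each had its own culture, and the p-values therefore rest on array-to-array spread that may be technical only. With a single knockout line set against a single control line, line differences and the deletion itself cannot be told apart.

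A basement membrane is a thin sheet of extracellular matrix that lies under epithelia and around many other cells. Laminin, a trimer of an alpha, a beta and a gamma chain, binds cell surface receptors and assembles into a first network. Type IV collagen, mainly trimers of the alpha 1 and alpha 2 chains in the early embryo, forms a second, covalently crosslinked network. Nidogens bind laminin and collagen, and perlecan is a large heparan sulfate proteoglycan of the same sheet. In the mouse embryo the endoderm and, later, other epithelia and vessels lay down such membranes, and in embryoid bodies a basement membrane forms between the outer endoderm and the inner cells. The Col4a1 and Col4a2 genes lie head to head and are transcribed in opposite directions from a shared promoter region.

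The promoter windows of this pair are shown because they hold the shared stretch and because both genes read highest at day 6 in both genotypes. In the RefSeq table for GRCm38.p6, the window from 250 bases before to 50 bases after the start of Col4a1 is chr8:11312777-11313076 on the minus strand, and that of Col4a2 is chr8:11312555-11312854 on the plus strand. Each is printed 5′ to 3′ on its own gene's strand. Capitals mark the 78 bases, chr8:11312777-11312854, that lie in both windows and are the reverse complement of each other as printed.
Col4a1: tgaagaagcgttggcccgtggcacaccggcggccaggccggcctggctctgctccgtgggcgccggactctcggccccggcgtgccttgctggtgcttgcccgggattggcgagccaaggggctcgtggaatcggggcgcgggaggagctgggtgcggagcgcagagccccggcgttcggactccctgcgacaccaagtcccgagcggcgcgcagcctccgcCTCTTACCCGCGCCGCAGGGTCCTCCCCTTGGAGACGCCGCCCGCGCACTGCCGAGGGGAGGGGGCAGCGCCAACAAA
Col4a2: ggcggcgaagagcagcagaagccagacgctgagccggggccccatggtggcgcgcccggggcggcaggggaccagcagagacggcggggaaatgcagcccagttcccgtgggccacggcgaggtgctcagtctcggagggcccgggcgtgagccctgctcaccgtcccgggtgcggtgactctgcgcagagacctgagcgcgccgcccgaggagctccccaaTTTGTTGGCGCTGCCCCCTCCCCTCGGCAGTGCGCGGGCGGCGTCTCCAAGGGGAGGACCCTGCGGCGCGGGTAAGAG

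Probes on the 16 arrays reached detection, defined as a deposited detection p-value below 0.01, in numbers from 6300 on the second control day 0 array to 9045 on the first knockout day 9 array. Levels below are log2 of background-corrected, quantile-normalized intensity, and values of different genes come from different probes and are not compared with each other. The 2 arrays of a group correlated with r from 0.982 to 0.992 over the genes tested. On the first principal component, which held 63.9% of the variance, the first control day 6 array lay at 45.4, against 34.8 to 35.9 for the other 3 arrays of day 6. The probe for Rest, the deleted gene, was not detected on any array, at deposited intensities of 1.26 to 32.0 on knockout arrays and 4.00 to 44.0 on control arrays, and gives no check of the labels. The changes below were tested with limma over all genes tested, and a gene is called changed when its Benjamini-Hochberg adjusted p was below 0.05. RNA came from whole cultures, so that fewer cells of a type and less RNA per cell cannot be told apart in any value below.

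Both collagen genes read highest at day 6 in both genotypes, above day 0, day 3 and day 9. For Col4a1, the chain that supplies most of the strands of the collagen trimer, the day 0 levels were 7.12 and 7.29 on knockout arrays and 8.03 and 7.58 on control arrays. At day 3 the Col4a1 probe, at 6.50 and 6.35 in knockout and 6.03 and 6.41 in control, was not detected on any of the 4 arrays. Day 6 gave 9.86 and 9.36 in knockout and 9.30 and 9.72 in control, and day 9 gave 8.40 and 8.27 in knockout and 9.04 and 8.93 in control. All 4 arrays of day 6 lay above all arrays of day 0 and day 3, and the genotypes overlapped at day 6 but not at day 0 or day 9. Against day 0, Col4a1 rose 5.30-fold by day 6 in knockout (log2 difference 2.40 ± 0.21 SE, adjusted p = 1.13e-07) and 3.26-fold in control (1.71 ± 0.21, adjusted p = 4.62e-06). Where a gene was not detected on any array of a group, its fold is given as a bound, computed against the dimmest detected probe of each array or the gene's own value if that was higher. By day 3 Col4a1 had fallen at least 1.36-fold in knockout (adjusted p = 0.00639) and at least 1.98-fold in control (adjusted p = 1.59e-05). The knockout call was lost without the second knockout day 0 array (log2 difference -0.69, adjusted p = 0.0510).

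Col4a2, the partner chain, was not detected on any array of day 0 or day 3. Its readings there were 6.02 and 6.35 in knockout and 6.05 and 6.32 in control at day 0, and 5.57 and 5.81 in knockout and 5.68 and 6.04 in control at day 3. Day 6 gave 8.84 and 8.61 in knockout and 8.50 and 8.87 in control, and day 9 gave 7.37 and 7.70 in knockout and 7.90 and 8.05 in control. The probe thus appeared above background only in the later embryoid bodies, and the genotypes overlapped at day 6 but not at day 9. Compared with day 0, Col4a2 rose at least 3.56-fold by day 6 in knockout (adjusted p = 2.83e-08) and at least 2.72-fold in control (adjusted p = 3.42e-08). The step from day 6 to day 9 was a fall of 2.29-fold in knockout (-1.19 ± 0.19, adjusted p = 2.77e-04) and of 1.64-fold in control (-0.71 ± 0.19, adjusted p = 0.0129). For Col4a1 the same step was a fall of 2.42-fold in knockout (-1.27 ± 0.21, adjusted p = 2.93e-04), while in control it missed the threshold at -0.52 ± 0.21 (adjusted p = 0.0735). The Col4a2 call in control was lost without the second control day 6 array (-0.53, adjusted p = 0.136), without the first control day 9 array (-0.64, adjusted p = 0.0849) and with the authors' normalized values (-0.70, adjusted p = 0.209). The Col4a1 value in control passed without the first control day 6 array (-0.73, adjusted p = 0.0396). A lower Col4a2 reading at day 3 than at day 0 in knockout also passed (-0.49 ± 0.19, adjusted p = 0.0485), but between 2 groups without a detected array, and it was lost in 12 of 28 settings. The arrays whose removal ended it were the second of knockout day 0 (-0.33, adjusted p = 0.297), both of knockout day 3 in turn (-0.37 and -0.61, adjusted p = 0.249 and 0.0591), and either of knockout day 6 or control day 9 (-0.49, adjusted p = 0.0548 and 0.0588).

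**Figure D1:**
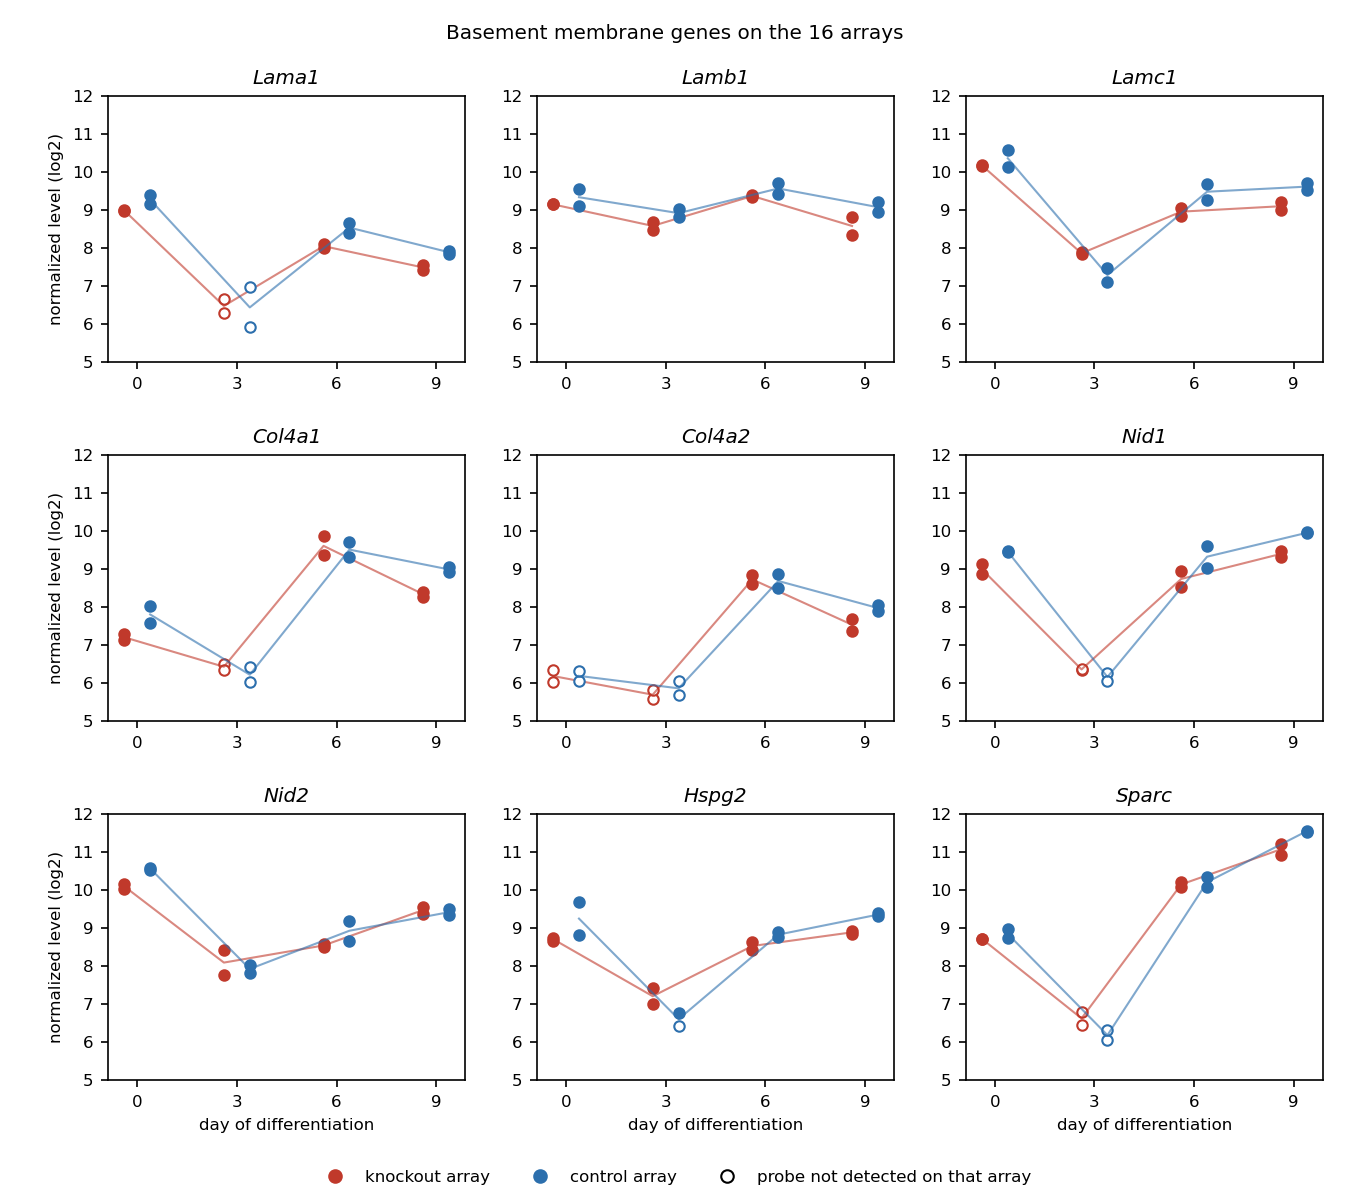
Normalized level (log2, vertical axis) of the 9 measured basement membrane genes on each array by day (horizontal axis), with knockout arrays in red to the left of control arrays in blue, lines through the group means, and open circles where the probe was not detected. Col4a1 and Col4a2 peak at day 6 in both genotypes, Sparc is highest at day 9 with 10.92 and 11.22 in knockout and 11.56 and 11.54 in control, and 5 genes have open circles on all 4 arrays of day 3.

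Lama1 and Lamc1, in contrast, read highest in undifferentiated cells, and Lamb1 changed little. Lama1, the alpha chain of the laminin made earliest in the mouse embryo, read 8.98 and 8.99 in knockout and 9.40 and 9.14 in control at day 0. By day 3 it was not detected on any array, at 6.29 and 6.65 in knockout and 6.96 and 5.91 in control. Its probe came back to 8.10 and 8.00 in knockout and 8.67 and 8.40 in control at day 6, and read 7.54 and 7.43 in knockout and 7.85 and 7.93 in control at day 9. All arrays of days 6 and 9 lay between those of day 3 and those of day 0, and the genotypes overlapped only at day 3. Relative to day 0, Lama1 at day 3 had fallen at least 4.67-fold in knockout (adjusted p = 1.40e-06) and at least 5.46-fold in control (adjusted p = 2.83e-07). At day 9 it was still 2.83-fold lower in knockout (-1.50 ± 0.25, adjusted p = 7.38e-05) and 2.61-fold lower in control (-1.38 ± 0.25, adjusted p = 1.60e-04). The fall by day 6 was -0.94 ± 0.25 in knockout (adjusted p = 0.00426) and -0.73 ± 0.25 in control (adjusted p = 0.0180). With the authors' normalized values the control fall missed the threshold (-0.73, adjusted p = 0.0866). The control call was lost without the first control day 0 array (-0.61, adjusted p = 0.106), without the second control day 6 array (-0.60, adjusted p = 0.109), and when arrays were scaled on their medians (-0.32, adjusted p = 0.262).

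Lamc1, the gamma chain shared by most laminins, read 10.16 and 10.19 in knockout and 10.59 and 10.13 in control at day 0, and 7.89 and 7.83 in knockout and 7.11 and 7.47 in control at day 3. Later readings were 9.06 and 8.85 in knockout and 9.69 and 9.27 in control at day 6, and 9.21 and 8.99 in knockout and 9.71 and 9.52 in control at day 9. The gene was detected on all 16 arrays, the genotypes overlapped only at day 0, and no array of day 3, 6 or 9 reached the lowest array of day 0. At day 3 Lamc1 was 4.97-fold lower than at day 0 in knockout (-2.31 ± 0.19, adjusted p = 1.90e-07) and 8.41-fold lower in control (-3.07 ± 0.19, adjusted p = 7.22e-09). By day 9 it remained 2.11-fold below day 0 in knockout (-1.07 ± 0.19, adjusted p = 1.24e-04) and 1.68-fold below in control (-0.75 ± 0.19, adjusted p = 0.00251).

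Lamb1, the beta chain of the same trimer, stayed within 8.33 and 9.70 on all arrays. Its levels were 9.15 and 9.15 in knockout and 9.56 and 9.12 in control at day 0, and 8.48 and 8.68 in knockout and 9.02 and 8.81 in control at day 3. They were 9.41 and 9.33 in knockout and 9.43 and 9.70 in control at day 6, and 8.83 and 8.33 in knockout and 9.20 and 8.95 in control at day 9. The probe was detected on every array, and the genotypes overlapped only at day 0. At day 3 Lamb1 was lower than at day 0 by -0.57 ± 0.19 in knockout (adjusted p = 0.0237), a change of 1.48-fold. This missed the threshold when arrays were scaled on their medians (-0.44, adjusted p = 0.103). The control value of -0.42 ± 0.19 missed the threshold (adjusted p = 0.0771) and passed without the second control day 0 array (-0.64, adjusted p = 0.0249). The knockout call was lost without the first knockout day 3 array (-0.47, adjusted p = 0.142) and without either knockout day 0 array (-0.57, adjusted p = 0.0829 and 0.0818). Lamb1 at day 9 was also lower than at day 0 in knockout (-0.57 ± 0.19, adjusted p = 0.0148). That call was lost without the second knockout day 9 array (-0.32), without either knockout day 0 array (-0.57) and with median scaling (-0.49, adjusted p = 0.0543).

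Of the linker proteins, Nid1, which joins the laminin and collagen networks, fell below detection at day 3 and returned to about its starting level. It read 8.86 and 9.13 in knockout and 9.47 and 9.44 in control at day 0, and 6.35 and 6.37 in knockout and 6.25 and 6.06 in control at day 3. It then read 8.95 and 8.53 in knockout and 9.61 and 9.03 in control at day 6, and 9.32 and 9.47 in knockout and 9.94 and 9.97 in control at day 9. All 4 arrays of day 3 lay more than 2 log2 units below every other array, and at each day the genotypes did not overlap. From day 0 to day 3 the fall was at least 4.69-fold in knockout (adjusted p = 5.58e-08) and at least 6.21-fold in control (adjusted p = 3.87e-09). By day 6 the difference from day 0 was -0.25 ± 0.19 in knockout (adjusted p = 0.253) and -0.13 ± 0.19 in control (adjusted p = 0.561). At day 9 it was 0.40 ± 0.19 in knockout (adjusted p = 0.0682, or 0.0335 without either control day 6 array) and 0.50 ± 0.19 in control, which passed (adjusted p = 0.0286) but not without any 1 of the 4 control arrays (adjusted p = 0.0712 to 0.0975).

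Nid2, the second nidogen, did not return to its starting level. Day 0 gave 10.03 and 10.16 in knockout and 10.54 and 10.59 in control, and day 3 gave 7.77 and 8.41 in knockout and 8.03 and 7.81 in control. Day 6 gave 8.50 and 8.58 in knockout and 9.19 and 8.67 in control, and day 9 gave 9.57 and 9.38 in knockout and 9.49 and 9.35 in control. All 16 arrays detected it, and every later array lay below every day 0 array. Nid2 fell 4.02-fold by day 3 in knockout (-2.01 ± 0.20, adjusted p = 1.77e-06) and 6.24-fold in control (-2.64 ± 0.20, adjusted p = 7.26e-08). At day 9 it was 1.54-fold below day 0 in knockout (-0.62 ± 0.20, adjusted p = 0.0129) and 2.22-fold below in control (-1.15 ± 0.20, adjusted p = 1.41e-04). The day 9 call in knockout was lost without the second knockout day 0 array (-0.56, adjusted p = 0.0714) or the second knockout day 9 array (-0.53, adjusted p = 0.0848). It was also the one gene of the 9 whose rise from day 3 to day 6 in knockout missed the threshold (0.45 ± 0.20, adjusted p = 0.0750), and this passed without the second knockout day 3 array (0.77, adjusted p = 0.00880).

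Hspg2, whose heparan sulfate chains hold growth factors in the membrane, read 8.67 and 8.75 in knockout and 9.69 and 8.80 in control at day 0. Day 3 gave 7.00 and 7.41 in knockout and 6.43 and 6.77 in control, where 1 of the 2 arrays detected it. Day 6 gave 8.63 and 8.42 in knockout and 8.75 and 8.90 in control, and day 9 gave 8.92 and 8.85 in knockout and 9.31 and 9.39 in control. The first control day 0 array stood well above the second, and otherwise the day 6 and day 9 arrays lay close to those of day 0. Hspg2 fell 2.83-fold by day 3 in knockout (-1.50 ± 0.23, adjusted p = 9.28e-05) and 6.26-fold in control (-2.65 ± 0.23, adjusted p = 2.74e-07). Neither day 6 nor day 9 passed against day 0, with -0.18 ± 0.23 and 0.18 ± 0.23 in knockout and -0.42 ± 0.23 and 0.10 ± 0.23 in control. The control values rest on which day 0 array is used: without the second, day 6 was called lower (-0.87, adjusted p = 0.00218), and without the first, day 9 was called higher (0.55, adjusted p = 0.0257).

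Sparc, a secreted glycoprotein that binds type IV and other collagens, read highest at day 9 in both genotypes. On the brighter of its 2 probes it read 8.72 and 8.71 in knockout and 8.96 and 8.72 in control at day 0, and 6.80 and 6.44 in knockout and 6.04 and 6.32 in control at day 3. It then read 10.09 and 10.21 in knockout and 10.34 and 10.08 in control at day 6, and 10.92 and 11.22 in knockout and 11.56 and 11.54 in control at day 9. The genotypes overlapped at day 6, and the 4 days formed 4 separate bands. Sparc rose 5.12-fold between day 0 and day 9 in knockout (2.35 ± 0.17, adjusted p = 1.11e-08) and 6.52-fold in control (2.71 ± 0.17, adjusted p = 2.51e-09). By day 3 it had fallen at least 4.06-fold in control (adjusted p = 9.18e-09). In knockout it was also called lower at day 3 (adjusted p = 1.56e-07), but the brighter probe was not detected on either array, so its fitted difference of -2.10 ± 0.17 does not measure how far it fell. The other probe was detected on 1 of the 2 knockout arrays of day 3. The second probe gave changes of -2.27 ± 0.30, 1.24 ± 0.30 and 2.19 ± 0.30 at days 3, 6 and 9 in knockout and of -2.23 ± 0.30, 1.47 ± 0.30 and 2.43 ± 0.30 in control, the same direction as the first at each day.

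Counted together, all 9 genes were called lower at day 3 than at day 0 in knockout, where 21.6% of all genes tested were called lower, and 7 of 9 in control, where 24.4% were. None was called higher at day 3, against 24.6% of all genes in knockout and 27.2% in control. The 9 in knockout include Col4a2, which was not detected at day 0 or day 3, so that no fall was measured for it. Its call held in 16 of 28 settings. The median change of the 9 was -2.01 in knockout and -2.65 in control, or -2.45 for control with undetected groups at their bound, beside medians over all genes of 0.04 in each. At day 6, 3 of 9 were called higher and 3 lower than at day 0 in both genotypes, where 31.7% and 29.9% of all genes were called higher and lower in knockout and 32.4% and 30.6% in control. The 3 higher genes were Col4a1, Col4a2 and Sparc, and the 3 lower ones Lama1, Lamc1 and Nid2, in knockout and in control alike. At day 9, 3 were called higher and 4 lower in knockout (35.4% and 34.2% of all genes) and 4 higher and 3 lower in control (35.2% and 34% of all genes). Those 3 higher genes remained so in both genotypes at day 9, joined in control by Nid1, and the same 3 lower genes remained so, joined in knockout by Lamb1. The shares at days 6 and 9 were near or not far above the shares over all genes, so the counts alone do not set the 9 apart there. Without the first control day 6 array, which stands apart, the control count at day 6 was again 3 higher and 3 lower.

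**Figure D2:**
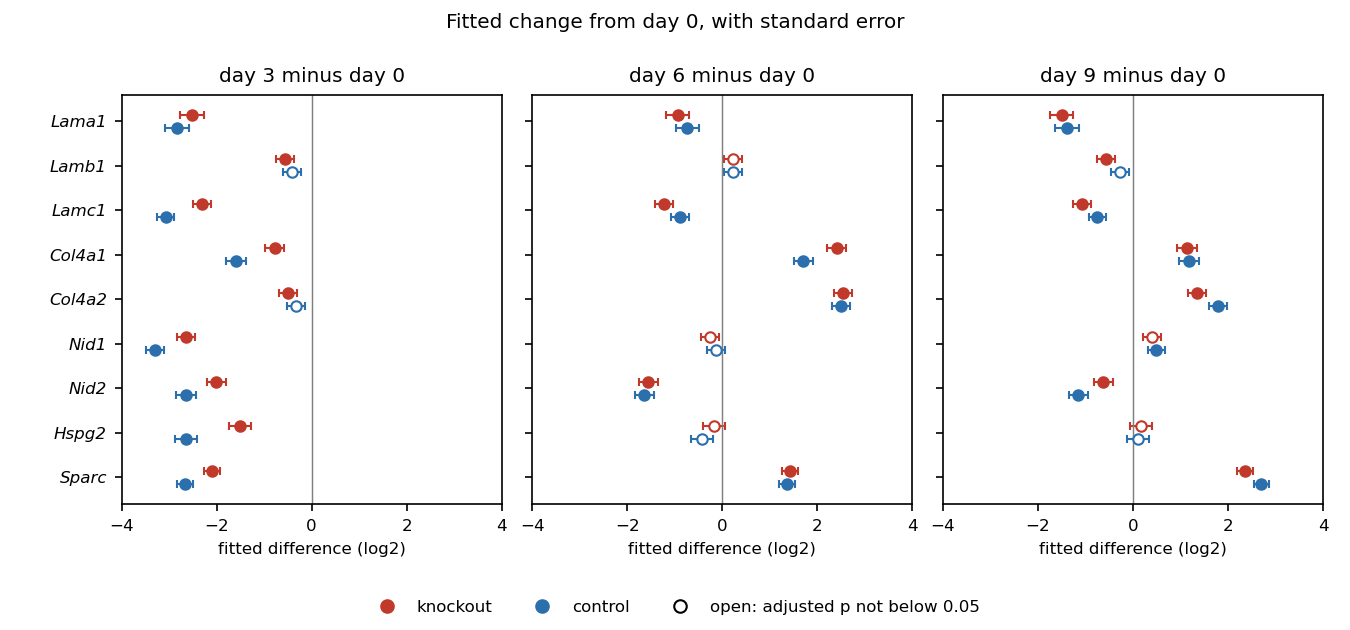
Fitted log2 change from day 0 (horizontal axis) with its standard error for each gene (vertical axis), knockout in red above control in blue, one panel per day. Filled points passed an adjusted p of 0.05, all 9 in knockout at day 3, and points whose gene was not detected in a group are fitted values and no bounds. Col4a2 was not detected in knockout at day 0 or day 3, so that its filled point at day 3 measures no fall. At days 6 and 9, Col4a1, Col4a2 and Sparc lie to the right of 0, and Lama1, Lamc1 and Nid2 to the left.

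The step from day 3 to day 6 carried most of the recovery, except for Nid2 in knockout. Nid2 there rose by 0.45 ± 0.20 over this step and by 0.93 ± 0.20 from day 6 to day 9. The day 3 to day 6 step was called upward for 8 of 9 genes in knockout, where 25.7% of all genes were called higher and 27.4% lower. In control it was called upward for 9 of 9, where 25.9% were called higher and 26.9% lower. For Col4a1 this was a rise of at least 7.18-fold in knockout (adjusted p = 9.58e-09) and at least 6.45-fold in control (adjusted p = 7.44e-09). For Nid1 it was at least 3.93-fold in knockout (adjusted p = 8.35e-08) and at least 5.67-fold in control (adjusted p = 4.02e-09). Lamb1 rose by 0.79 ± 0.19 in knockout (adjusted p = 0.00286) and by 0.65 ± 0.19 in control (adjusted p = 0.00968), a call lost without the second control day 3 array (0.55, adjusted p = 0.0741) or the second control day 6 array (0.52, adjusted p = 0.0790). From day 6 to day 9 the genes parted in knockout: Nid1, Nid2 and Sparc rose and Lamb1, Col4a1 and Col4a2 fell, 3 and 3 of 9, where 17.7% and 17.5% of all genes were called higher and lower. In control over that step Nid1 and Sparc rose and Col4a2 fell, where 14% and 13.9% of all genes were called. The Sparc rise was 0.92 ± 0.17 in knockout (adjusted p = 7.11e-04) and 1.34 ± 0.17 in control (adjusted p = 3.89e-05). The Nid1 rise was 0.66 ± 0.19 in knockout (adjusted p = 0.0142) and 0.63 ± 0.19 in control (adjusted p = 0.0220). It was lost in knockout without the second day 6 array (0.45, adjusted p = 0.156) or the second day 9 array (0.59, adjusted p = 0.0924). In control it was lost without the second day 6 array (0.34, adjusted p = 0.272), the first day 9 array (0.64, adjusted p = 0.0782) or the second day 9 array (0.61, adjusted p = 0.105), with median scaling (0.29, adjusted p = 0.192) and in a fit of the 2 groups alone (0.63, adjusted p = 0.0757). The Lamb1 fall in knockout, -0.79 ± 0.19 (adjusted p = 0.00522), was lost without the second day 9 array (-0.54, adjusted p = 0.0792).

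Several values of that last step missed the threshold here and passed in some other settings. Of 28 settings, they passed in 7 for Lama1, 8 for Lamb1, 4 for Col4a1, 4 for Nid2 and 3 for Hspg2 in control, and in 4 for Lama1 in knockout. Without the first control day 6 array Col4a1 and Nid2 passed in control, with Nid2 at 0.75, against 0.49 with that array (adjusted p = 0.0873). Nid2 in control also passed without either knockout day 3 array (adjusted p = 0.0485). The Hspg2 step in control, 0.53 ± 0.23 (adjusted p = 0.105), passed without either control day 0 array (adjusted p = 0.0256). The Lama1 step, -0.56 ± 0.25 in knockout (adjusted p = 0.0936) and -0.65 ± 0.25 in control (adjusted p = 0.0651), passed without either control day 3 array (adjusted p = 0.0146 in knockout and 0.00833 in control). The Lamb1 step in control, -0.49 ± 0.19 (adjusted p = 0.0668), passed without either control day 0 array (adjusted p = 0.0466) or either knockout day 9 array (adjusted p = 0.0474).

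Whether loss of REST changed these genes was asked at each day. At day 0, day 3, day 6 and day 9 limma called 0 of the 9 genes, where 1.41%, 3.94%, 1.43% and 2.69% of all genes were called higher in knockout and 0.773%, 2.85%, 0.32% and 2.43% lower. Without the first control day 6 array the day 6 count was again 0. At an unadjusted p below 0.05 the counts were 4 lower at day 0, 3 higher at day 3, 2 lower at day 6 and 6 lower at day 9, beside 7.05%, 11%, 5.14% and 8.89% of all genes in the same direction. The median knockout minus control difference of the 9 was -0.28 at day 0, 0.20 at day 3 (0 with undetected groups at their bound), -0.30 at day 6 and -0.48 at day 9. Over all genes the median lay between -0.0023 and 0.0043 at these days.

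At day 9, Col4a1 had the largest of these differences, -0.65 ± 0.21 (95% interval -1.09 to -0.21, adjusted p = 0.0928), and it passed only when the fit was limited to the 2 groups compared (adjusted p = 0.0338). Nid1 followed with -0.55 ± 0.19 (interval -0.96 to -0.15, adjusted p = 0.121), and Lamc1 with -0.52 ± 0.19 (interval -0.92 to -0.11, adjusted p = 0.153). Nid2 alone had a difference above 0 at day 9, 0.06 ± 0.20 (interval -0.38 to 0.49, adjusted p = 0.935). Knockout arrays lay wholly below control arrays for 8 of 9 genes at day 9, where 25% of all genes did, and wholly above for 0, where 24.1% did. At day 0 they lay wholly below for 6 of 9 (20.4% of all genes) and above for 0 (21%), and at day 6 wholly below for 6 of 9 (20.8%) and above for 0 (21%). At day 3 they lay wholly above for 4 of 9 (27.3%), namely Lamc1, Nid1, Hspg2 and Sparc, and below for 1 (25%), Lamb1. Of those 4, Nid1 and the brighter Sparc probe were not detected on any array of day 3. The other Sparc probe gave knockout minus control differences of 0.07, 0.03, -0.16 and -0.17 (each ± 0.30) at days 0, 3, 6 and 9. On that probe the genotypes overlapped at days 0, 3 and 6, and at day 9 the knockout arrays again lay below. Scaling the arrays on their medians instead moved the median over all genes toward knockout, by 0.13 (day 0) and 0.17 (day 9). Knockout arrays then lay wholly below for 3 members (day 0), 5 (day 6) and 7 (day 9), and wholly above for 1 (day 9). Shares over all genes are not given for that scaling. The shares above belong to the main setting and are no background for these counts. The same scaling changed the share of higher among called genes to 84.3% at day 0 and 80.9% at day 9, against 64.6% and 52.6%.

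Nid1 differed between knockout and control by -0.46, -0.59 and -0.55 at days 0, 6 and 9. At day 3 it was not detected in either genotype, and its fitted difference was 0.20. Averaged over the 4 days, day 3 included, Nid1 was the 1 gene called, lower in knockout by -0.35 ± 0.09 (adjusted p = 0.0270), where 5.08% of all genes were called lower and 5.17% higher. The difference held in 17 of 28 settings. It was lost with the authors' normalized values (-0.32, adjusted p = 0.0742) and with median scaling (-0.23, adjusted p = 0.0811). It was also lost without any 1 of 9 single arrays, with values from -0.36 to -0.28 and adjusted p from 0.0503 to 0.0752. These were the first at knockout days 0 and 9, either at knockout day 3, the second at knockout day 6, the first at control days 3 and 6, and either at control day 9. Lamb1 came close at -0.30 ± 0.09 (adjusted p = 0.0545), and passed in 6 of 28 settings.

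**Figure D3:**
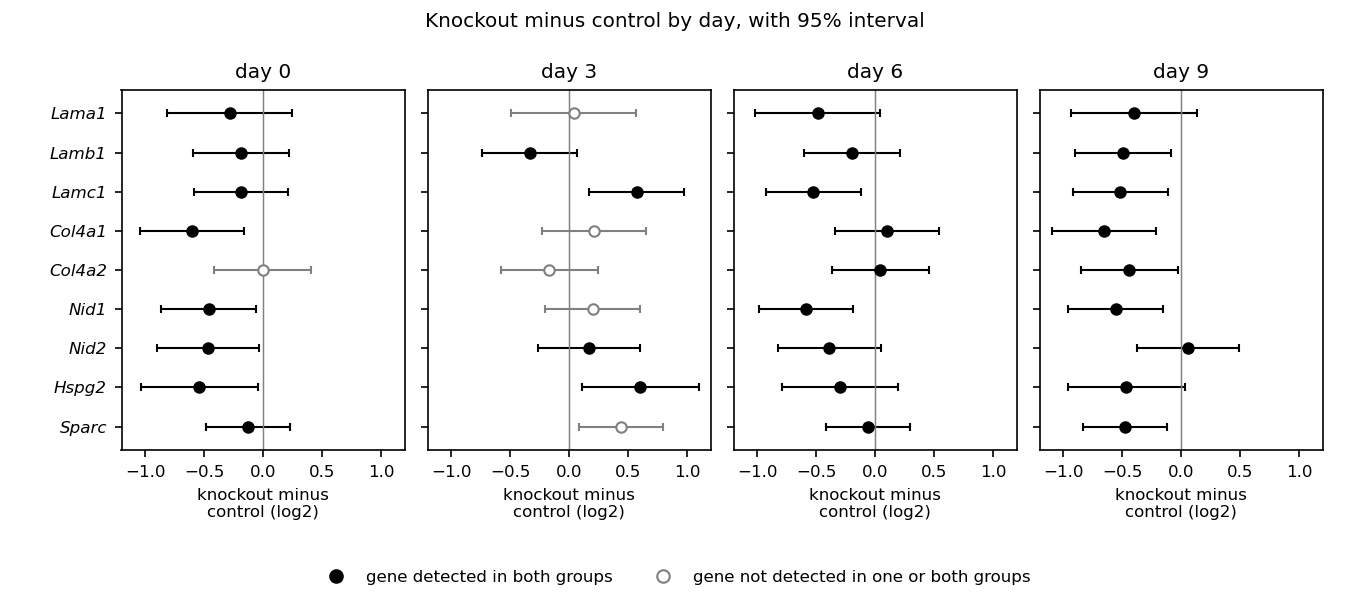
Knockout minus control difference (log2, horizontal axis) of each gene (vertical axis) at each day, with 95% intervals that are not adjusted for the number of genes. Grey open points mark genes not detected in one or both groups. At day 9, 8 of 9 points lie to the left of 0, and at day 3 Lamc1 (0.57) and Hspg2 (0.60) lie furthest to the right.

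For the change from day 0 to day 3, limma called a difference between the genotypes for 0 of the 9 genes (1.28% of all genes higher and 1.39% lower). At an unadjusted p below 0.05 there were 6, all higher, beside 7.82% of all genes. Among those 6, Col4a1, Nid1 and the brighter Sparc probe were not detected at day 3 in either genotype, so that how far they fell is not known. The other Sparc probe gave -0.04 ± 0.42 for this difference. The other 3 were Lamc1 (0.76 ± 0.27), Nid2 (0.64 ± 0.29) and Hspg2. Hspg2 differed most, by 1.14 ± 0.33 (adjusted p = 0.0854), and was called without the second control day 0 array (1.59, adjusted p = 0.00681). Hspg2 at day 3 alone was higher in knockout by 0.60 ± 0.23 (adjusted p = 0.154), and at day 0 lower by -0.54 ± 0.23 (adjusted p = 0.299), which passed without the second control day 0 array (-0.98, adjusted p = 0.0276). Without either control day 0 array the Hspg2 difference at day 3 passed (adjusted p = 0.0378). Lamc1 at day 3 was higher in knockout by 0.57 ± 0.19 (adjusted p = 0.0911), and passed with a trended, robust spread estimate (adjusted p = 0.0396). Nid1 at day 6 was lower in knockout by -0.59 ± 0.19 (adjusted p = 0.179) and passed without the second control day 6 array (-0.88, adjusted p = 0.0200). For the changes from day 0 to day 6 and to day 9, 0 of 9 genes were called, where 0.853% and 1.2% of all genes were called higher and 0.16% and 1.05% lower. At an unadjusted p below 0.05 there was 1 to day 6, Col4a1, higher, and 0 to day 9. Over all genes 5.5% were higher and 3.98% lower at that limit to day 6, and 6.22% and 5.96% to day 9.

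Other basement membrane components were followed through a list of 21 genes, of which 18 had a probe and 8 were tested. At day 9, 6 of the 8 were called higher than at day 0 in knockout and 5 in control, beside 35.4% and 35.2% of all genes, and 0 lower in either, beside 34.2% and 34%. Col4a5 and Col4a6, chains of another type IV collagen, were not detected at day 0 and had risen by day 9 at least 1.99-fold and 1.67-fold in knockout and at least 2.29-fold and 1.91-fold in control. Fbln1 and Fbln2, fibulins that bind laminin and nidogen, rose 5.51-fold and at least 3.40-fold in knockout and 4.80-fold and at least 2.18-fold in control. At day 3, where 21.6% of all genes were lower in knockout and 24.4% in control, 3 of 8 were lower in knockout (Smoc1 at least 3.29-fold, Agrn 2.27-fold, Col18a1 1.70-fold). In control 4 were lower at day 3 (Smoc1 at least 3.21-fold, Col18a1 3.28-fold, Agrn 2.85-fold, Fbln1 2.07-fold). Lamb2, the beta 2 laminin chain, rose by day 3 in control (0.49 ± 0.17, adjusted p = 0.0281), a call lost without the second day 0 or the first day 3 array. Between genotypes, Col18a1, the precursor of endostatin, was higher in knockout at day 3 (0.75 ± 0.18, adjusted p = 0.0197), and Lamb2 lower in the average over days (-0.32 ± 0.09, adjusted p = 0.0263, in 12 of 19 settings). The Col18a1 arrays of day 3 read 11.73 and 11.80 in knockout and 10.75 and 11.27 in control, without overlap, and the call was lost without either knockout array or the first control array of day 3.

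The receptors of laminin and type IV collagen fell with their ligands at day 3. Of 13 receptor genes on the array 8 were tested, and 7 of them were called lower at day 3 than at day 0 in each genotype, beside 21.6% of all genes in knockout and 24.4% in control. The median was -0.80 in knockout and -1.48 in control. Itga3 and Itga6 are alpha chains of laminin-binding integrins. Itga3 read 10.24 and 10.11 in knockout and 10.57 and 10.88 in control at day 0, and 7.96 and 8.38 in knockout and 6.24 and 6.75 in control at day 3. Its knockout arrays thus lay above the control arrays at day 3 and below them at day 0. The difference at day 3 was 3.20-fold (1.68 ± 0.23, adjusted p = 2.29e-04), and the fall from day 0 differed between the genotypes by 2.23 ± 0.32 (adjusted p = 0.00154).

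Itga6 at day 3 read 7.14 and 7.26 in knockout and 5.82 and 6.51 in control, where it was not detected, a difference of at least 1.30-fold (adjusted p = 0.00444) that was lost without the second knockout or the first control array of day 3. At day 9 it was the control arrays, at 6.82 and 6.55, that lay above the knockout arrays, at 6.05 and 5.89, where it was not detected. That difference of at least 1.11-fold (adjusted p = 0.0498) held in 4 of 19 settings. Sdc4, a heparan sulfate proteoglycan of the cell surface, was 1.77-fold lower in knockout at day 9 (-0.83 ± 0.19, adjusted p = 0.0177), a call lost without the first array of either genotype at day 9 and with median scaling, and was at least 1.09-fold higher in knockout at day 3 (adjusted p = 0.0491, in 5 of 19 settings). At day 9 Itga6 was at least 6.67-fold below day 0 in knockout (adjusted p = 1.78e-09) and 7.37-fold below in control (adjusted p = 8.21e-09). Itgb1, the beta chain that pairs with both, was higher at day 9 than at day 0, at least 1.68-fold in knockout (adjusted p = 0.00153) and at least 1.12-fold in control (adjusted p = 0.0494, in 10 of 19 settings).

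Genes that fold, modify, export and crosslink collagen were counted over 16 genes with a probe, of which 13 were tested. At day 9, 11 were called higher and 1 lower than at day 0 in each genotype, where 35.4% of all genes were called higher and 34.2% lower in knockout, and 35.2% and 34% in control. The median was 1.03 in knockout and 1.29 in control. Serpinh1, the collagen chaperone HSP47, rose 24.7-fold in knockout (4.63 ± 0.16, adjusted p = 6.76e-12) and 25-fold in control (4.64 ± 0.16, adjusted p = 6.19e-12). Its arrays read 8.21 and 8.09 in knockout and 8.62 and 8.53 in control at day 0, and 12.73 and 12.84 in knockout and 13.27 and 13.16 in control at day 9, with no overlap of genotypes at either day. The 1 lower gene was Plod2, a lysyl hydroxylase (-0.79 ± 0.17 in knockout, -0.98 ± 0.17 in control). At day 3, 9 were lower and 2 higher in knockout, beside 21.6% and 24.6% of all genes, and 10 lower and 1 higher in control, beside 24.4% and 27.2%. Crtap, a partner in collagen prolyl hydroxylation, fell 3.82-fold in knockout and 3.40-fold in control, and at day 3 was 1.79-fold lower in knockout than in control (-0.84 ± 0.19, adjusted p = 0.0120), a call lost without the first knockout array or either control array of day 3.

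Between genotypes, 5 of the 13 were lower in knockout in the average over days and 0 higher, where 5.08% and 5.17% of all genes were: Loxl1 (-0.59 ± 0.10, adjusted p = 8.31e-04), Bmp1 (-0.56 ± 0.09, adjusted p = 0.00111), Crtap (-0.54 ± 0.09, adjusted p = 0.00163), Serpinh1 (-0.36 ± 0.08, adjusted p = 0.00876) and Plod2. Loxl1, a lysyl oxidase that crosslinks matrix proteins, read 9.69 and 9.58 in knockout and 11.13 and 11.23 in control at day 9, a 2.93-fold difference without overlap (adjusted p = 8.35e-05). Bmp1, a protease that trims procollagens and laminin chains, read 6.11 and 6.44 in knockout and 8.25 and 7.96 in control at day 0. It was not detected in knockout at day 0, at least 2.32-fold below control (adjusted p = 2.55e-05), and by day 9 read 10.96 and 10.98 in knockout and 11.17 and 11.24 in control. A call in the average does not mean a difference at every day. The fitted Bmp1 change from day 0 was larger in knockout by 1.73, 1.77 and 1.60 to days 3, 6 and 9. Its average thus rests mainly on day 0. For Loxl1 the change from day 0 to day 9 differed by -1.42. The Serpinh1 and Plod2 calls were lost when arrays were scaled on their medians, and the Plod2 call held in 9 of 19 settings.

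**Figure D4:**
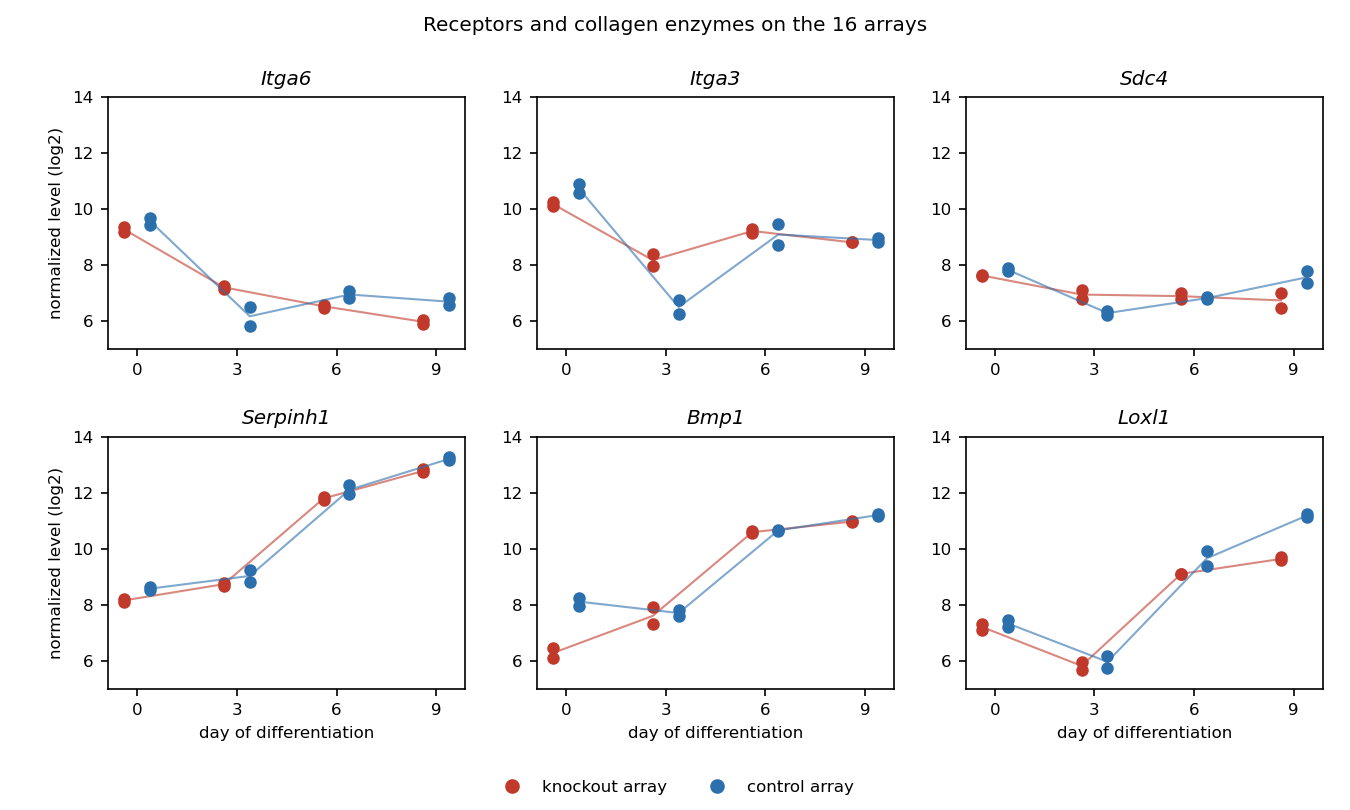
Normalized level (log2, vertical axis) on each array by day (horizontal axis) of 3 receptor genes in the upper row and 3 collagen processing genes in the lower row, knockout arrays in red left of control arrays in blue, lines through group means. Itga3 at day 3 is higher in knockout (7.96 and 8.38, against 6.24 and 6.75 in control), Bmp1 at day 0 and Loxl1 at day 9 are lower in knockout, and Serpinh1 is higher at days 6 and 9 than at day 0 in both genotypes. Not detected on any array were Itga6 in knockout at days 6 and 9 and in control at day 3, Sdc4 in control at day 3, Bmp1 in knockout at day 0, and Loxl1 in both genotypes at day 3.

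Markers of the cell types that lay down basement membrane also differed between days and genotypes, not always in the direction of the 9 genes, and their part in the results above was not tested. Of 10 parietal endoderm markers (cells that make a thick laminin and collagen membrane in the mouse), 5 were tested. Their summed linear level was 509.7 to 771.4 in knockout and 2788 to 3135 in control at day 3. Gata6 (-3.28 ± 0.37 log2), Sox17 and Pdgfra were called lower in knockout at that day, and Dab2 higher. In control, 4 of the 5 parietal endoderm genes tested were called higher at day 3 than at day 0, beside 27.2% of all genes. By day 9 the sum was 16450 to 17808 in knockout and 14091 to 15428 in control. Thbd, Plat, Pth1r, Sox7, Gata4 and Krt19 were not detected at day 3 or day 9 in either genotype, so that the sums at these days rest on the other markers. Sox17 and Pdgfra were not detected at day 3 in knockout. Of 8 visceral endoderm markers on the array, 2 and 1 were detected in knockout and control at day 0. The sum over the 5 tested was 13335 to 14850 in knockout and 5510 to 9358 in control at day 6. It was 12631 to 13532 in knockout and 26246 to 30102 in control at day 9, with Afp lower in knockout (3.19-fold, adjusted p = 6.06e-04). The mesenchyme sum, of 9 markers on the array that include fibrillar collagens, was 589.4 to 628.6 in knockout and 730.1 to 796.3 in control at day 0, and 101944 to 103776 in knockout and 117050 to 119274 in control at day 9.

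The 7 endothelial markers tested, of 9 on the array, summed to 1702 to 1961 in knockout and 2058 to 2436 in control at day 0. At day 3 they summed to 908.1 to 990.9 in knockout and 1128 to 1214 in control. They reached 6177 to 6848 in knockout and 6586 to 6789 in control at day 6, and were 5174 to 6373 in knockout and 5107 to 5814 in control at day 9. Cdh5, which defines endothelium, was not detected in any group, while Tek and Tie1 were detected at day 6 only. From day 6 to day 9, 6 of the 7 endothelial genes tested were called lower in each genotype, beside 17.5% of all genes in knockout and 13.9% in control. All 10 undifferentiated cell markers were called lower at days 6 and 9 than at day 0 in each genotype. Over all genes these shares were 29.9% and 34.2% in knockout and 30.6% and 34% in control. At day 3 the summed level of these 10 markers was 38104 to 38691 in knockout and 30681 to 32315 in control, against 86520 to 87947 in knockout and 80112 to 84913 in control at day 0. The 6 neural ectoderm markers tested summed to 811.2 to 877.6 in knockout and 716.3 to 726.5 in control at day 9. Sox1, Tubb3, Sox3 and Ncam1 were not detected in any group. The 6 trophoblast markers tested summed highest at day 3, at 3629 to 4193 in knockout and 5335 to 5573 in control, with Cdx2 and Gata3 lower in knockout. Elf5, Hand1, Ascl2, Krt7, Plac1 and Tpbpa were not detected at day 3 in either genotype, nor was Gata3 in knockout.

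Which genes followed each member most closely was measured by the root mean square difference in log2 level over the 16 arrays, each gene centred on its own mean, against 7504 other genes. The arrays share day, genotype and normalization, so this likeness mainly reads the time course. For Col4a1 the nearest were Nexn (0.358), Col4a2 (0.378) and Ppfibp2 (0.381), and for Col4a2 they were Hoxd4 (0.256), Cdkn1c (0.321) and Plac1 (0.327), with Col4a1 at rank 14. Lama1 was closest to Mfge8 (0.285), Htra1 (0.313) and Esyt1 (0.394), with Lamc1 at rank 4, and Lamc1 to Htra1 (0.255), Esyt1 (0.267) and Plec (0.335), with Lama1, Nid2 and Hspg2 at ranks 9, 12 and 13. The nearest genes of Nid2 were Ifitm2 (0.276), Csad (0.282) and Slc39a11 (0.284), and those of Nid1 were Abca1 (0.417), Slc66a2 (0.470) and S100a6 (0.485), with Hspg2 at rank 6. Slc66a2 (0.267), Cdh3 (0.288) and Grasp (0.323) lay nearest to Hspg2, and Anxa2 (0.428), Ahnak (0.444) and Gadd45g (0.455) to Sparc. Lamb1 was closest to Rtn4 (0.180), Cd3e (0.184) and Agpat4 (0.215), and no other member ranked nearer to it than 5756, where Lama1 stood. Seen from Lama1, at the same difference of 0.807, Lamb1 ranked 379. The measure is not scaled for how far each gene moved, so these ranks do not compare the shapes of the time courses alone.

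Promoter windows were found for 7 of the 10 genes, Lama5, Lamb1, Col4a1, Col4a2, Nid1, Hspg2 and Sparc, and were searched on both strands for short letter strings. The GC box letters GGGCGG occurred 5 times in Hspg2, 4 in Lama5, 3 in Col4a2, 2 in Lamb1 and once each in Col4a1 and Nid1, but not in Sparc, and at least once in 35.7% of the 32851 windows of the table. The letters CCAAT occurred once each in Col4a1, Col4a2, Lamb1 and Nid1 and in 37.4% of all windows. Of the 2 parts of the element that REST binds, GGACAGC occurred once each in Hspg2, Lama5 and Lamb1 and in 6.56% of all windows, and TCAGCAC in none of the 7 and in 5.12% of all. The GATA letters AGATAA (11.2% of all windows) and TGATAA (9.05%) and the AP-1 letters TGACTCA (5.2%) were not found in any of the 7. These are matches of letters in windows of 300 bases and not measured binding sites.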

How the data were processed

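Total RNA of 16 samples was hybridised to Illumina mouse bead arrays. The deposited table, per the file headers, lists 25697 probes with an unnormalized intensity and a detection p-value per sample. Of the deposited intensity values, 25.5% to 28.0% per array lay below 0, as background subtraction leaves them. A second deposited table held the authors' normalized intensity values and served as an alternative. No source used here names the scanner software. Here the deposited intensity was background corrected and quantile normalized with neqc (limma 3.58.1, R 4.3.3), with an offset of 16, and taken to log2, the unit of all levels computed from the deposited data. Probes with a detection p-value below 0.01 on both arrays of at least 1 group were kept (10241), the brightest for each gene. The platform annotation gave 1 gene symbol for 23978 probes and none for 1719. Group means were fitted with lmFit and eBayes over all 16 arrays (8 residual degrees of freedom), and p-values adjusted by Benjamini and Hochberg over 7505 genes in each comparison. Bead arrays have no read depth, and the 2 arrays per group limit the precision.

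The members and gene lists were chosen with earlier results of these data known. All members are named, the called genes of each other list (at most 4 of largest change per list and comparison), and the 3 nearest genes of each member. Steps between consecutive later days and counts of non-overlapping arrays were added after the values were seen. The test was checked on simulated data. Alternatives covered background correction, normalization, offset, filter, probe choice, replicate block, spread model, the groups fitted and each array left out.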

Additional observations from a re-analysis of the deposited data

Results flagged for a closer look

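The flagged results are genes of the component, receptor and enzyme lists whose change from day 0 differed between the genotypes in limma, each given as the knockout change minus the control change on the log2 scale. For the change from day 0 to day 3, the difference was 2.23 ± 0.32 for Itga3 (adjusted p = 0.00154), 1.34 ± 0.28 for Itga6 (adjusted p = 0.0201), 1.03 ± 0.20 for Ddr1, a collagen receptor kinase (adjusted p = 0.0146), and 0.92 ± 0.23 for Fbln1 (adjusted p = 0.0466). Itga3, Itga6 and Ddr1 were called lower at day 3 than at day 0 in both genotypes, and Fbln1 in control. The Fbln1 difference held in 3 of 19 settings and that of Itga6 in 14 of 19. The Ddr1 difference held in 16 of 19 settings, and its fall by day 3 in knockout in 12 of 19.

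Bmp1 differed in all 3 changes, by 1.73 ± 0.26 to day 3 (adjusted p = 0.00217), 1.77 ± 0.26 to day 6 (adjusted p = 0.00249) and 1.60 ± 0.26 to day 9 (adjusted p = 0.00243). These 3 values share the day 0 arrays, where Bmp1 was not detected in knockout, and are fitted values and no bounds. Loxl1 differed by -1.42 ± 0.27 to day 9 (adjusted p = 0.00855), and the call was lost with the authors' normalized values. No member of the basement membrane set met this condition.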

How the results depend on the processing

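Of the 18 counts of called members, 11 stayed within 1.5 times their value under every alternative run, leaving out single arrays included. The count averaged over the days, 1 here, was 2 without background correction, with an offset of 50 and with trended, robust spread estimates, 0 with the authors' normalized table and with median centring, and 0 to 2 with each array left out. The control change between days 9 and 6, 3 here, was 6 without background correction, with an offset of 50 and with trended, robust estimates, 5 with median centring, and 1 to 5 with each array left out. Counts of 0 became 1 at day 3 and for the difference in change to day 3 with trended, robust estimates, and at day 9 in a fit of the compared groups alone. They were 0 to 1 with each array left out at days 0, 3 and 6 and for the change to day 3. The cause was not tested. With the replicate number as a block the averaged count was 1 and no other count moved. Same-numbered knockout and control arrays had deviations correlated at -0.12, 0.06, -0.18 and 0.07 at days 0, 3, 6 and 9. These values show no strong shared effect of the number. The labels do not say whether same-numbered samples were handled together, and the correlations cannot decide it. Over single genes no called value reversed: of 1944 values under other settings 1902 kept their call, 14 lost it and 28 gained it, and of 2592 with an array left out 2522 kept it, 41 lost it and 29 gained it. Median centring shifted the median of all genes by up to 0.33 (control day 6 against day 0). The share of higher among called genes, with centring and against the reported values, was 84.3% against 64.6% for knockout minus control at day 0, 80.9% against 52.6% at day 9 and 83.7% against 50.5% averaged. For days 3 and 6 against day 0 it was 65.7% against 53.3% and 66.6% against 51.5% in knockout, and 69.8% against 52.7% and 71.2% against 51.4% in control. For day 9 against day 6 it was 28.5% against 50.3% in knockout and 16.7% against 50.1% in control, and for the differences in change to days 3 and 9 it was 33.3% against 48% and 65.6% against 53.3%. Signal over background limits the day 3 values, where several members were not detected.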
